A study of Homo sapiens with 19 samples.

Results

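The genes described here encode the nuclear part of the oxidative phosphorylation machinery. They were chosen by name alone, as every gene whose symbol begins with NDUFA, NDUFB, NDUFC, NDUFS or NDUFV and a digit, with COX4 to COX8, with UQCR or with ATP5, or is SDHA, SDHB, SDHC or SDHD. The rule took 92 of the 25365 genes in the OCI-LY10 table, and the same 92 names stood in the TMD8 and SUDHL2 tables (25267 and 25266 genes). Of these 92, 74 are subunit genes of the 5 complexes: 36 of complex I, 4 of complex II, 8 of complex III, 11 of complex IV (with NDUFA4, named for complex I and now counted with complex IV) and 15 of complex V. The other 18 are COX7A2L (a factor that joins complexes into supercomplexes), 7 isoform genes usually restricted to certain tissues (COX4I2, COX6A2, COX6B2, COX7A1, COX7B2, COX8C and NDUFA4L2), 4 gene copies (UQCRHL, UQCRBP1, ATP5EP2 and ATP5L2), 2 readthrough transcripts (ATP5J2-PTCD1 and NDUFC2-KCTD14), 2 antisense transcripts (NDUFA6-AS1 and NDUFB2-AS1) and 2 genes that are not subunits (ATP5S and ATP5SL).

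RNA was sequenced from OCI-LY10, TMD8 and SUDHL2, established human lines of diffuse large B-cell lymphoma, all of its activated B-cell-like (ABC) subtype. In each line, cells carried the control hairpin (named shsc4 in the labels), the EGR1 hairpin shEGR1#8 or the EGR1 hairpin shEGR1#9, and cells of every group, the controls too, were transduced and given 20 ng/ml doxycycline for 2 days to induce the hairpin. The 15 RNA libraries were 9 of OCI-LY10 (3 for each hairpin), 3 of TMD8 and 3 of SUDHL2 (1 for each hairpin). The other 4 of the 19 samples, EGR1 chromatin immunoprecipitation and input, were not analysed here, and nothing in the labels says that libraries of 1 hairpin came from separate cultures.

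Oxidative phosphorylation passes electrons from NADH (at complex I) and from succinate (at complex II) through ubiquinone to complex III, and from there by cytochrome c to complex IV, which hands them to oxygen. Complexes I, III and IV pump protons across the inner mitochondrial membrane, and complex V, the ATP synthase, lets them flow back to make ATP. Most subunits are encoded in the nucleus and imported, a few are encoded by mitochondrial DNA, and complex II is wholly nuclear-encoded. EGR1 is a zinc-finger transcription factor that B cells induce on receptor signalling. In diffuse large B-cell lymphoma, high expression of oxidative phosphorylation genes has been used to define a group of tumours.

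The deposited values carry no stated unit and were read as FPKM, read counts scaled for transcript length and sequencing depth. On that reading, levels can be compared between genes. The level of EGR1 itself did not follow the labels in OCI-LY10. It was 8.57, 9.59 and 12.3 FPKM in the controls, 10.04, 11.4 and 20.5 under the shEGR1#8 label and 10.8, 11.8 and 22.7 under the shEGR1#9 label, a log2 difference of 0.42 ± 0.27 (SE; adjusted p = 0.349, limma). In TMD8 it was 7.31 in the control against 10.8 and 9.95, and in SUDHL2 17.0 against 13.7 and 15.4. Every direction below is therefore a direction between libraries by their labels. The B-cell markers MS4A1, CD79A, CD79B, PAX5 and CD22 lay between 19.3 and 1096 FPKM over all 15 libraries, and IRF4, which marks the ABC subtype, between 92.0 and 465.6. Markers of T and NK cells reached at most 0.520, of myeloid cells 2.88 and of epithelial cells and fibroblasts 8.65 (EPCAM in OCI-LY10). Read totals are not stated in the sources used here, and their part in any single difference was not tested. Of the OCI-LY10 libraries, the one labelled shEGR1#8 replicate 3 had the fewest genes above 0, 13442 against 13657 to 14638. The value at the lower end of its detected genes (the 2nd percentile above 0) was the highest, 0.0449 FPKM against 0.0182 to 0.0363. This lower end went with the hairpin label. It was 0.0294 to 0.0449 with shEGR1#8, 0.0208 to 0.0236 in the controls and 0.0182 to 0.0276 with shEGR1#9. Its part in the shEGR1#8 differences cannot be told apart from that of the hairpin.

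Because EGR1 binds a known GC-rich word, the promoters of the genes were read for it before their levels were compared. RefSeq promoter sequences (GRCh38.p14, whereas the expression tables were made on hg19) were matched for 72 of the 92 genes, and each was searched on both strands from 250 bases before to 50 bases after the start. The EGR1 consensus GCGTGGGCG stood in 1 of the 72 (1.39%), that of COX5A, and in 0.795% of all 35116 promoters. These 35116 were not limited by type of gene or by expression, so the shares below do not compare like sets. A close variant, GCGGGGGCG, stood in 5 (NDUFB10, COX5B, COX6B2, ATP5A1 and ATP5I; 6.94%), against 5.07% of all promoters. The core word of NRF1, a factor known for driving respiratory chain genes, was GCGCATGC, and it stood in 12 (16.7%), against 3.05%. The word CCGGAAG, bound by ETS factors such as GABPA, stood in 19 (26.4%), against 10.3%. AAGATGGC, bound by YY1, stood in 13 (18.1%), against 2.89%. GGGCGG, bound by SP1 and able to overlap the end of the EGR1 variant, stood in 42 (58.3%), against 45.0%. The NDUFA6-AS1 entry overlaps that of NDUFA6. A match is a description of letters only, and which factor was bound was not measured here.

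The 3 promoters printed show what these words look like in place: the 250 bases before the start of COX5A with the EGR1 consensus, of COX5B with the EGR1 variant and of SDHD with the NRF1 core, each word in capitals and each sequence in the direction of its gene. COX5A lies at chr15:74938074-74938323 on the minus strand, COX5B at chr2:97645812-97646061 on the plus strand and SDHD at chr11:112086623-112086872 on the plus strand (GRCh38.p14). In COX5A and COX5B the capitals are the reverse complement of the word as spelled above, and in SDHD they cover matches on both strands that overlap.
COX5A: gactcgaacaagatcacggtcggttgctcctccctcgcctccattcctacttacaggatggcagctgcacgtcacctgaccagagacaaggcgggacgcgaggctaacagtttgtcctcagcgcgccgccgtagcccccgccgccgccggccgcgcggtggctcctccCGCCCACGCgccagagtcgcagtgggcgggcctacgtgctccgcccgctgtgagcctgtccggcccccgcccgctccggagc
COX5B: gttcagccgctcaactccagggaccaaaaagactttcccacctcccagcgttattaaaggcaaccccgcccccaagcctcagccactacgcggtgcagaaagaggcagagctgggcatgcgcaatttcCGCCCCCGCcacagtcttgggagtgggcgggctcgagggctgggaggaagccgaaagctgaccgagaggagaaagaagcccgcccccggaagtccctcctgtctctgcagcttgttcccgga
SDHD: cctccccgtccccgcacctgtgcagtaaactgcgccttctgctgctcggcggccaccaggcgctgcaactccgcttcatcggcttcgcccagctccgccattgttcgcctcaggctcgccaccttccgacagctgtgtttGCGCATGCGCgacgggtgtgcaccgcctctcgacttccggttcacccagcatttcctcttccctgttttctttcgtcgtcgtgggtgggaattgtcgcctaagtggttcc

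Neither gene with an EGR1 word printed here passed the test in OCI-LY10. COX5A, a subunit of complex IV, was at 288.2, 274.0 and 290.4 FPKM in the controls, 348.8, 264.4 and 306.1 with shEGR1#8 and 326.7, 266.4 and 297.1 with shEGR1#9 (log2 difference of both hairpins from control 0.08, adjusted p = 0.617, limma). COX5B, which binds zinc in the same complex, was at 167.1, 172.0 and 155.0, then 210.5, 156.3 and 205.6, then 182.0, 162.2 and 198.5 (0.17, adjusted p = 0.346, limma). For both genes some hairpin libraries lay within the range of the controls or below it.

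The genes were among the more abundant transcripts of OCI-LY10. The median level of the 79 that could be tested was 112.8 FPKM as a mean over the 9 libraries, against 11.3 for all 10612 genes tested, and the 92 together held between 2.97% and 3.14% of all FPKM in a library. By complex, the median level was 79.0 in complex I, 80.9 in complex II, 86.0 in complex III, 264.8 in complex IV and 240.8 in complex V. The highest in complex I was NDUFA1, a small membrane-arm subunit, at 243.1, and the lowest NDUFA5, an accessory subunit of the peripheral arm, at 9.10. In complex II, SDHB, the iron-sulfur subunit, stood highest at 113.2 and SDHC, a membrane anchor, lowest at 37.6. UQCRH, the hinge protein beside cytochrome c1, led complex III with 785.4, and its lowest subunit was UQCR11 with 32.6. COX4I1 led complex IV with 735.7 and NDUFA4 stood lowest with 53.7. In complex V, ATP5E (the epsilon subunit of the F1 stalk) reached 672.1 and ATP5D (the delta subunit beside it) 37.8. Subunits present once in each complex, such as ATP5D and ATP5E, thus differed widely in FPKM within 1 complex.

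**Figure D1:**
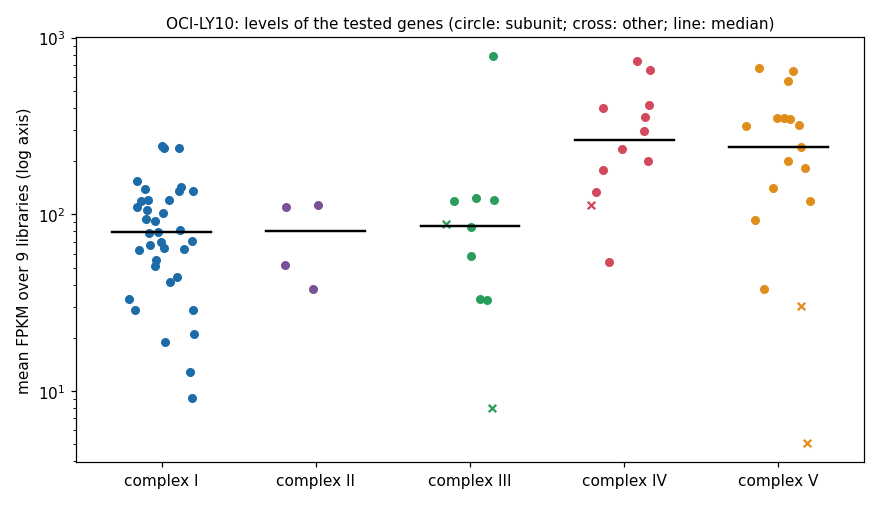
Levels of the tested genes in OCI-LY10 as mean FPKM over the 9 libraries on a log axis, 1 point per gene, by respiratory complex, with the median of each complex as a bar. The medians of complexes IV (264.8) and V (240.8) lie above those of complexes I to III (79.0 to 86.0).

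Where separate genes encode isoforms of 1 subunit, the form known from most tissues carried nearly all the RNA. COX6A1 was at 355.0 FPKM, COX6B1 at 398.9, COX7A2 at 201.1, COX7B at 418.0 and COX8A at 233.9. Their tissue-restricted counterparts COX6A2, COX6B2, COX7A1, COX7B2 and COX8C were listed at 0 in all 9 OCI-LY10 libraries. COX4I2, the lung form of COX4, was at most 0.121 FPKM, and NDUFA4L2, a hypoxia-inducible counterpart of NDUFA4, lay between 0.675 and 1.55. The 3 genes for subunit c, the rotor ring of the ATP synthase, encode the same mature protein, and were ordered ATP5G1 (319.8), ATP5G2 (118.3) and ATP5G3 (93.3). ATP5G1 was above both others in all 9 libraries.

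In OCI-LY10, 1 of the 79 genes tested rose in the libraries of both EGR1 hairpins against control, and none fell (limma on log2(FPKM + 1), Benjamini-Hochberg adjusted p under 0.05 over all 10612 genes). Among all genes tested 5.84% rose and 2.71% fell. The count of genes that rose was 0 when any 1 control library was left out, and 0 when the first or the second shEGR1#9 library was. Under median-ratio scaling 0 rose and 1 fell, NDUFB6. The difference was positive for 41 of the 79 and negative for 38, with a median of 0.012 on the log2 scale against 0.026 for all genes, and ran from -0.54 to 0.40. None reached 1.5-fold. For 69 of the 79 (87.3%) the 95% interval of the difference lay wholly inside 1.5-fold either way, against 87.9% of all genes. The 10 genes with wider intervals were NDUFA5, NDUFA7, NDUFC2, NDUFS7, UQCR11, COX6B1, COX6C, ATP5D, ATP5G3 and UQCRBP1. At an unadjusted p under 0.05 there were 5 higher and 11 lower, beside 16.8% and 9.28% of all genes. Adding 1 to each FPKM before the log makes the differences of low genes too small. In RNA from whole cultures, fewer cells expressing a gene and less RNA per cell cannot be told apart.

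**Figure D2:**
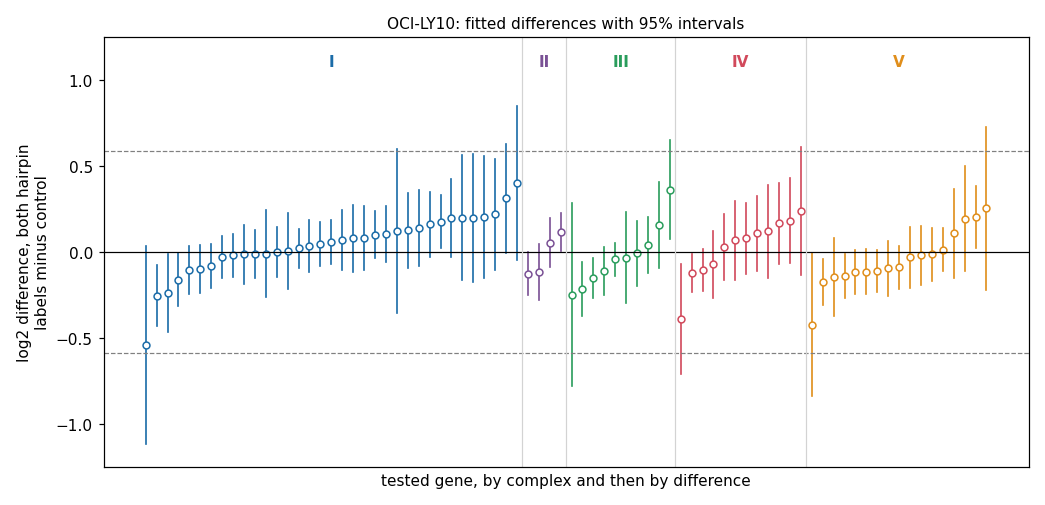
Log2 difference of both EGR1 hairpin labels from control in OCI-LY10 for 78 of the 79 tested genes, with 95% intervals from limma, grouped by complex; the dashed lines mark 1.5-fold. Of the 78 intervals shown, 68 lie inside the lines, and 0 of these genes passed the adjusted threshold.

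The complex I genes lay on both sides of 0. Of the 36, 23 had a positive difference and 13 a negative one, where 55.8% of all genes tested were positive. The median of the 36 was 0.06, and that of the 7 core subunits was 0.10 against 0.06 for the 29 accessory ones. NDUFS7, the core subunit with the last iron-sulfur cluster before ubiquinone, had the most positive difference, 0.40 (adjusted p = 0.239, limma). Its libraries were at 22.6, 30.2 and 18.0 FPKM in the controls, 24.7, 31.3 and 41.9 with shEGR1#8 and 24, 31.2 and 35.0 with shEGR1#9, so the groups overlapped. NDUFA5 had the most negative, -0.54 (95% interval -1.12 to 0.03; adjusted p = 0.215, limma). It was at 10.5, 12.7 and 10.8 in the controls, 8.99, 6.60 and 2.71 with shEGR1#8 and 9.84, 9.99 and 9.81 with shEGR1#9. The lowest of these 9 values was that of shEGR1#8 replicate 3, the library with the fewest genes above 0. NDUFB6, an accessory subunit of the membrane arm, was at 56.8, 58.6 and 56.02, then 47.7, 55.5 and 42.9, then 49.5, 47.4 and 44.3 (-0.25, adjusted p = 0.0793, limma), and all 6 hairpin libraries lay below the controls. NDUFA1 was at 270.6 ± 28.8 FPKM in the controls (SD, n = 3), with a difference of -0.24 (adjusted p = 0.172, limma).

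All 4 genes of complex II had intervals inside 1.5-fold, and none passed the test. SDHA, the flavoprotein that oxidizes succinate, was at 49.2, 47.7 and 49.5 FPKM in the controls, 51.5, 50.7 and 56.6 with shEGR1#8 and 52.2, 53.6 and 53.0 with shEGR1#9. Its hairpin libraries were all above the controls, by 0.11 on the log2 scale (adjusted p = 0.182, limma). SDHB was at 124.0, 116.4 and 119.1, then 108.2, 112.7 and 101.5, then 119.2, 109.9 and 107.5 (-0.13, adjusted p = 0.183), with 1 shEGR1#9 library within the range of the controls. SDHC differed by 0.05 (adjusted p = 0.625) and SDHD, the other membrane anchor, by -0.12 (adjusted p = 0.338). The 2 catalytic subunits of 1 complex therefore lay on opposite sides of 0, each by less than the test could call.

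Complex III gave no call among its 10 genes, with a median difference of -0.04. UQCR11, a small subunit, had the most positive value, 0.36 (95% interval 0.07 to 0.65; adjusted p = 0.116, limma). It was at 28.6, 27.2 and 25.2 FPKM in the controls, 44.5, 28.0 and 41.4 with shEGR1#8 and 33.3, 31.7 and 33.4 with shEGR1#9. Only shEGR1#8 replicate 2 was within the range of the controls, and without it the difference was 0.46 and passed (adjusted p = 0.00479, limma). It was the only fit of 16 alternatives in which UQCR11 passed. Dropping the library that overlaps the controls favours a smaller p, so this fit is no separate support. UQCRQ, which sits beside cytochrome b, differed by -0.22 (adjusted p = 0.0925) and UQCRC2, a core protein, by -0.15 (adjusted p = 0.105). The most negative value was that of UQCRBP1, a copy of UQCRB, with -0.25 (adjusted p = 0.529). UQCRH was at 819.9, 704.6 and 837.3 in the controls, 680.2, 823.7 and 702.6 with shEGR1#8 and 901.5, 803.5 and 795.7 with shEGR1#9, and the groups overlapped throughout (-0.01). Counting reads of UQCRH and its near-identical copy UQCRHL apart is uncertain. UQCRFS1, the Rieske iron-sulfur protein, varied least within groups of all 79 genes, with a pooled SD of 0.03 on the log2 scale.

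Complex IV had a median difference of 0.07 over 12 genes and no call. COX6C was lowest, at 160.6, 164.8 and 149.7 FPKM in the controls, 92.7, 151.5 and 124.1 with shEGR1#8 and 136.5, 122.7 and 104.5 with shEGR1#9 (-0.39, adjusted p = 0.125, limma). Here too, shEGR1#8 replicate 2 alone was within the range of the controls, and without it COX6C passed (-0.47, adjusted p = 0.0391, limma). That was again the only pass in 16 alternatives, and the same limit holds for it. COX6B1, which lies at the contact between paired complex IV monomers, had the most positive value, 0.24 (adjusted p = 0.388). COX4I1 differed by -0.10 (adjusted p = 0.258) and NDUFA4 by 0.18 (adjusted p = 0.328). COX6A1, COX7A2, COX7B and COX8A differed by 0.11, 0.03, 0.12 and 0.07. COX7A2L, the supercomplex factor, was below all controls in all 6 hairpin libraries, by -0.12 (adjusted p = 0.152, limma).

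Complex V leaned to negative values, with 12 of its 17 genes below 0, where 4691 of all 10612 genes tested were. Its median was -0.09 against 0.026 for all genes, and again none of the 17 passed the test. ATP5A1 and ATP5B, the alpha and beta subunits that form the catalytic head, were at 599.0 to 614.1 and 673.2 to 681.5 FPKM in the controls. In the 6 hairpin libraries they were at 508.8 to 575.7 and 587.8 to 667.6, below every control, with log2 differences of -0.14 (adjusted p = 0.162) and -0.11 (adjusted p = 0.231, limma). ATP5H, part of the peripheral stalk that holds the head still, was at 387.7, 370.2 and 382.2, then 327.9, 357.1 and 323.5, then 360.0, 344.0 and 311.0 (-0.17, adjusted p = 0.104). ATP5G3 had the most negative value, -0.42 (adjusted p = 0.184), with 113.6, 106.1 and 113.7 in the controls, 98.9, 59.3 and 93.7 with shEGR1#8 and 62.5, 98.5 and 93.3 with shEGR1#9. Its lowest libraries were 1 of each hairpin. The other genes for the same protein did not share its size, with 0.11 for ATP5G1 (adjusted p = 0.579) and -0.10 for ATP5G2 (adjusted p = 0.422). ATP5D had the most positive value, 0.25 (adjusted p = 0.475), and ATP5E was at -0.02 (adjusted p = 0.880). ATP5S, which carries an ATP5 symbol but is no subunit, was lowest of all 79 in level, at 5.08 FPKM, with -0.15 (adjusted p = 0.391).

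**Figure D3:**
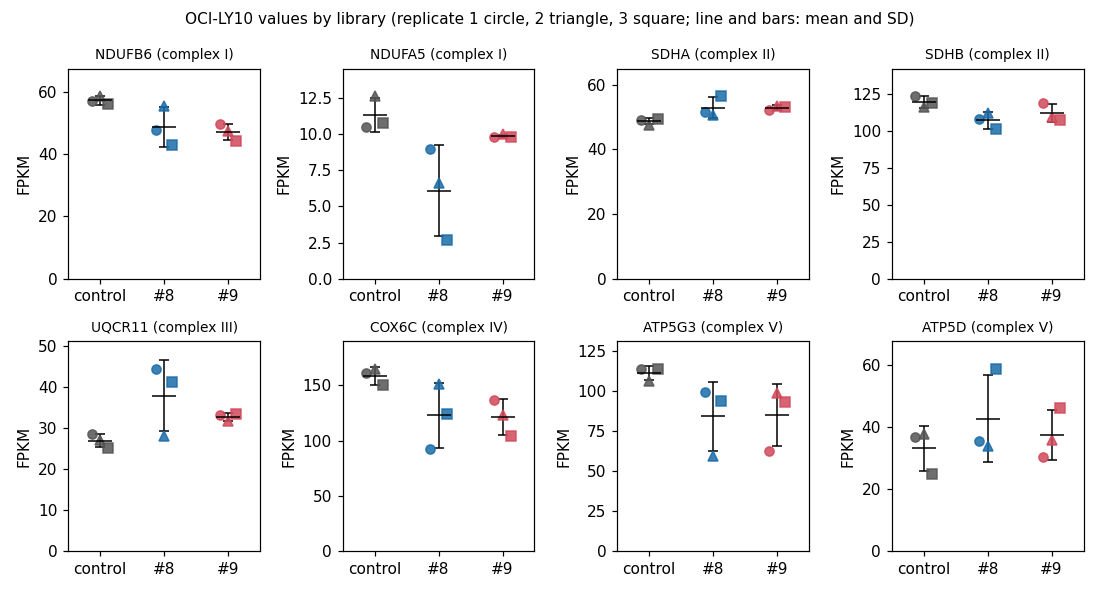
FPKM of 8 genes in each OCI-LY10 library, by hairpin, with the mean and SD of each group (n = 3); circles, triangles and squares are replicates 1, 2 and 3. SDHA lies higher in the hairpin libraries (50.7 to 56.6) than in the controls (47.7 to 49.5), NDUFB6 and ATP5G3 lie below their controls, and ATP5D overlaps.

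Complete separation of the groups was counted over all genes as a check on single names. All 6 hairpin libraries were above all 3 controls for 3 of the 79 genes (3.80%, NDUFA10 and SDHA among them), against 12.9% of all genes tested. They were below all 3 controls for 8 (NDUFA5, NDUFB6, NDUFB9, COX7A2L, ATP5G3, ATP5H, ATP5A1 and ATP5B; 10.1%), against 8.22% of all genes. These 8 hold 4 genes of complex V, 3 of complex I and the supercomplex factor. NDUFA10, an accessory subunit of complex I, was at 17.1 to 17.5 FPKM in the controls and 18.2 to 22.7 in the hairpin libraries (0.18, adjusted p = 0.140, limma). NDUFB9, of the membrane arm, was at 250.9 to 259.3 and 202.3 to 241.9 (-0.16, adjusted p = 0.173).

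Each hairpin was also compared with the controls on its own, and these comparisons share the 3 control libraries. With shEGR1#8, 1 gene rose and 0 fell, beside 3.71% and 1.62% of all genes. With shEGR1#9, 1 rose and 0 fell, beside 3.55% and 1.54%. At an unadjusted p under 0.05, shEGR1#8 had 3 genes higher and 8 lower, where 15% and 8.64% of all genes were. By the same measure shEGR1#9 had 2 higher and 6 lower, where 12.9% and 7.11% of all genes were. For each hairpin, the count of genes past the adjusted threshold was 0 under median-ratio scaling and under quantile normalization. It was also 0 with a replicate block and without any 1 of the control libraries. The counts at an unadjusted p were not repeated under these alternatives. The only gene past 1.5-fold in size was NDUFA5 with shEGR1#8, -0.91 (adjusted p = 0.115), against -0.18 with shEGR1#9.

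The hairpins were compared directly, with no control involved. Of the 79 genes 0 passed the test, as did 0 (0%) of all genes by limma, and at an unadjusted p under 0.05 there were 2, 1 higher and 1 lower with shEGR1#9 (2.53%), against 2.52% of all genes. The median difference was 0.00, and the interval lay inside 1.5-fold for 74 of 79. NDUFA5 differed most, at 0.73 on the log2 scale (adjusted p = 1.00).

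Libraries within 1 hairpin differed from each other by a median SD of 0.12 on the log2 scale for the 79 genes, against 0.11 for all genes tested. The SD ran from 0.03 (UQCRFS1) and 0.05 (SDHA) to 0.31 (ATP5G3), 0.33 (NDUFS7), 0.36 (ATP5D and NDUFC2), 0.40 (UQCRBP1) and 0.43 (NDUFA5). ATP5D shows the pattern of the variable genes: it was at 36.9, 37.8 and 24.9 FPKM in the controls, 35.6, 33.9 and 58.8 with shEGR1#8 and 30.3, 35.9 and 46.1 with shEGR1#9, lowest in the third control and highest in the third library of each hairpin. As a description over these 9 libraries, which share their depth and processing, the genes most like ATP5D were the complex I genes NDUFS8 (Pearson r = 0.97), NDUFA11 (0.96) and NDUFB7 (0.96), and NDUFS7 followed it less closely (0.88). COX6B1 varied with ATP5G1 (0.97), ATP5I (0.93) and COX6A1 (0.93). These likenesses run across complexes. The library shEGR1#8 replicate 3 was the highest of the 9 for 27 of the 79 genes (34.2%) and the lowest for 12 (15.2%), against 28.3% and 26.8% of all genes.

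**Figure D4:**
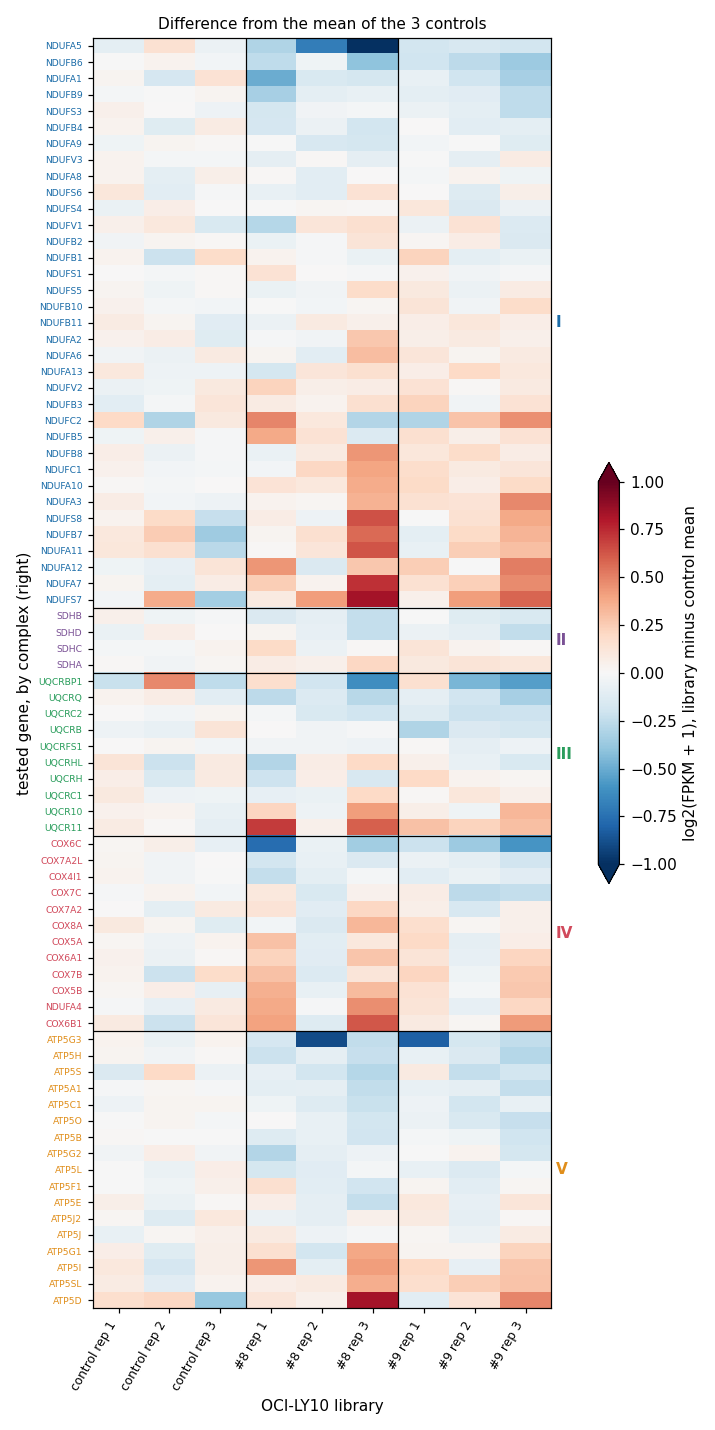
Log2 difference of each OCI-LY10 library from the mean of the controls for 78 of the 79 tested genes (rows, grouped by complex) in the 9 libraries (columns). Every complex holds genes with positive and genes with negative differences, and shEGR1#8 replicate 3 is the highest library for 27 of the 79.

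TMD8 had 1 library for each hairpin, so its differences have no replicate check and no test. They are log2(FPKM + 1) differences from the control library after taking off the median of all genes with at least 1 FPKM in a library, which shifted by -0.09 (shEGR1#8) and 0.00 (shEGR1#9). Of the 83 genes at or above that level, 26 were lower by over 1.5-fold with shEGR1#8 and 3 higher, where 16.6% of all genes were lower and 16.6% higher. With shEGR1#9, 33 were lower and 4 higher, where 18.6% of all genes were lower and 12.9% higher. The median difference of the 83 was -0.42 with each hairpin. By complex the medians were -0.32 and -0.40 in complex I, -0.28 and -0.17 in complex II, -0.68 and -0.59 in complex III, -0.46 and -0.49 in complex IV and -0.47 and -0.48 in complex V, for shEGR1#8 and shEGR1#9. Both differences are taken from the same control library.

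The sizes in TMD8 varied much between subunits of 1 complex. NDUFA5 was at 29.7 FPKM in the control, 8.71 with shEGR1#8 and 6.74 with shEGR1#9 (-1.57 and -1.99). ATP5F1, the b subunit of the peripheral stalk, was at 186.6, 68.9 and 61.5 (-1.34 and -1.59). UQCRB, which helps to bind ubiquinone in complex III, was at 41.6, 15.4 and 13.6 (-1.29 and -1.55). SDHD was at 69.6, 26.4 and 35.7 (-1.28 and -0.95), where the other anchor and both catalytic subunits of complex II were less than 1.5-fold apart. COX7B was at 572.0, 301.2 and 228.0 (-0.84 and -1.33). ATP5D, in contrast, was at 215.8, 206.8 and 278.0 (0.03 and 0.36). Also lower by over 1.5-fold with each hairpin were NDUFA6, NDUFA7, NDUFB5, NDUFB6, NDUFC2, NDUFS4 and NDUFV2 of complex I, UQCRH, UQCRQ and UQCR10 of complex III, COX6C and NDUFA4 of complex IV, COX7A2L, and ATP5C1, ATP5E, ATP5G3, ATP5H, ATP5L and ATP5O of complex V. In all, 24 of the 83 genes were lower by over 1.5-fold with each hairpin, where 1498 of all 11807 genes were. UQCRHL alone was higher with each, where 877 of all 11807 genes were. It was at 0.923, 2.43 and 3.36 FPKM, a level at which reads of UQCRH assigned to the copy could matter.

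Beside these values, the TMD8 libraries differed in makeup. Genes of short RNAs (such as microRNA and small nucleolar genes, taken by name) held 36.3% of all FPKM in the control and 63.1% and 60.5% with shEGR1#8 and shEGR1#9, and the microRNA gene MIR6723 alone went from 68706 to 335273 and 333681 FPKM. In OCI-LY10 short RNA genes held at most 0.750%. Genes above 0 numbered 16560 in the TMD8 control against 14968 and 15240, and the 2nd percentile above 0 was 0.0113 FPKM against 0.0813 and 0.0570. The 92 genes held 1.82% of FPKM in the control and 1.03% and 1.102% with the hairpins, but 2.86%, 2.81% and 2.79% of the FPKM that was not short RNA. When the libraries were scaled to equal sums without short RNA genes, the median difference was -0.047 and -0.019 for the 83 genes and 0.32 and 0.34 for all genes. The counts past 1.5-fold then came to 9 lower and 7 higher with shEGR1#8, where 8.05% of all genes were lower and 31.5% higher. With shEGR1#9 they came to 12 lower and 8 higher, where 8.98% of all genes were lower and 32.4% higher. On that scale ATP5F1 was still lower by over 1.5-fold, at -0.96 and -1.19, as were NDUFA5, at -1.23 and -1.64, and UQCRB, at -0.93 and -1.17. SDHD, at -0.91 and -0.56, was past 1.5-fold only with shEGR1#8, and COX7B, at -0.45 and -0.93, only with shEGR1#9. Of the other genes listed above as lower, NDUFS4, ATP5C1, ATP5G3 and ATP5L stayed past 1.5-fold with each hairpin, and the rest did not. The part of library makeup in the TMD8 values was not tested beyond this scaling.

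SUDHL2, also with 1 library for each hairpin, showed smaller differences. The median of all genes shifted by 0.01 with each hairpin. Of 84 genes, 7 were lower by over 1.5-fold with shEGR1#8 and 3 higher, where 3.99% of all genes were lower and 5.98% higher. With shEGR1#9, 15 were lower and 4 higher, where 8.53% of all genes were lower and 9.35% higher. The median was -0.20 with each. By complex it was -0.19 and -0.19 in complex I, 0.00 and -0.01 in complex II, -0.08 and -0.47 in complex III, -0.22 and -0.21 in complex IV and -0.22 and -0.37 in complex V. COX7B was at 285.4 FPKM in the control, 176.2 with shEGR1#8 and 175.2 with shEGR1#9 (-0.70 and -0.71). NDUFB1, a small membrane-arm subunit, was at 100.6, 62.8 and 43.3 (-0.68 and -1.21). These were the subunits lower by over 1.5-fold with each, 2 of the 84 genes beside 257 of all 11631. NDUFA5 was at 7.52, 5.43 and 3.43 (-0.41 and -0.95).

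The genes higher by over 1.5-fold with each hairpin in SUDHL2, 2 of the 84 beside 431 of all 11631, were not usual subunits. ATP5J2-PTCD1, a readthrough transcript that shares exons with ATP5J2 and PTCD1, was at 0.0125, 8.08 and 7.75 FPKM, and its reads cannot be surely told from theirs. NDUFA4L2 was listed at 0 in the control and at 1.72 and 0.702. Short RNA genes held 55.3%, 54.9% and 53.6% of FPKM in the control, shEGR1#8 and shEGR1#9 libraries. Scaled without them, 1 gene was lower and 3 higher by over 1.5-fold with shEGR1#8, where 2.87% of all genes were lower and 8.81% higher. With shEGR1#9, 9 were lower and 4 higher, where 5.77% of all genes were lower and 14% higher. On that scale the medians were -0.078 and -0.068, where all genes had 0.11 and 0.13. COX7B was then at -0.575 and -0.564 and NDUFB1 at -0.555 and -1.06. With 1.5-fold at 0.585 on the log2 scale, neither stayed past it with each hairpin.

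**Figure D5:**
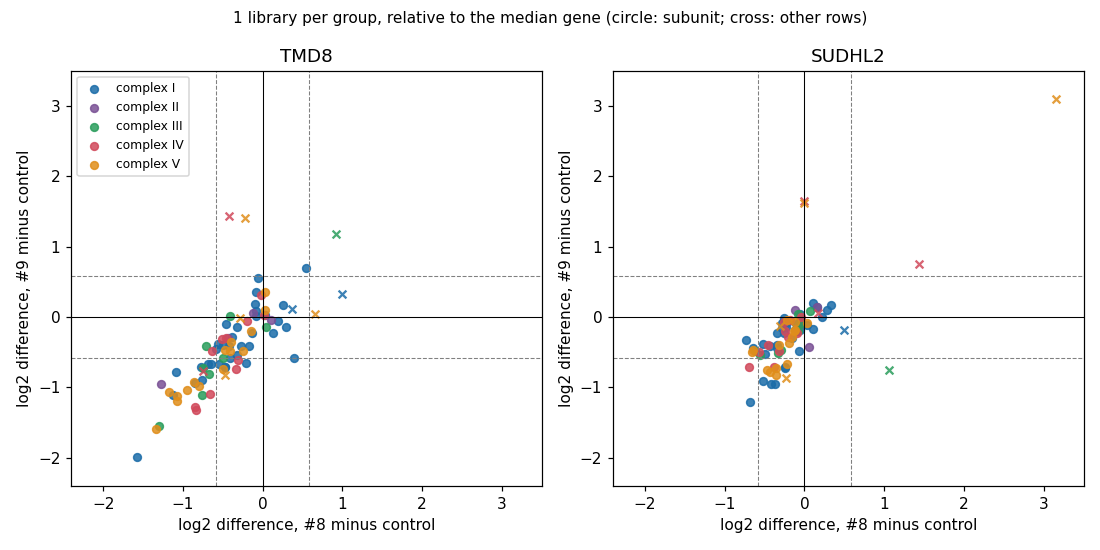
Log2 difference from the control library with shEGR1#8 (x axis) and shEGR1#9 (y axis), relative to the median gene, in TMD8 and SUDHL2; circles are subunit genes, crosses the other genes of the name rule, and dashed lines mark 1.5-fold. Both axes use the same control library, so points lie near the diagonal in part by construction; TMD8 points are centred near -0.42 and SUDHL2 points near -0.20.

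The genes that build and regulate these complexes were read beside them. Among 45 assembly factors tested in OCI-LY10, 0 rose and 4 fell for both hairpins against control (limma; 2.71% of all genes fell), with a median of -0.05. TMEM126B, an assembly factor of the complex I membrane arm, fell by 0.39 on the log2 scale (SE 0.08, adjusted p = 0.0166, limma). It was at 45.0, 47.9 and 48.0 FPKM in the controls, 38.8, 36.9 and 31.0 with shEGR1#8 and 38.2, 35.7 and 33.3 with shEGR1#9. In TMD8 it was at 24.5, 7.46 and 6.43, and in SUDHL2 at 9.35, 7.91 and 2.80. COA7 (-0.32, adjusted p = 0.0285), COX14 (-0.31, adjusted p = 0.0358) and COA1 (-0.26, adjusted p = 0.0377), which take part in building complex IV, were the other 3, and for all 4 the hairpin libraries lay below every control. In the control, shEGR1#8 and shEGR1#9 libraries of TMD8, COA7 was at 24.4, 26.2 and 22.8 FPKM, COX14 at 35.6, 43.2 and 29.5 and COA1 at 49.8, 34.2 and 42.8. In SUDHL2 COA7 was at 26.6, 18.9 and 23.1, COX14 at 40.6, 22.5 and 24.01 and COA1 at 38.9, 27.1 and 28.6. All TMD8 and SUDHL2 values in this paragraph are as deposited. Short RNA genes held 36.3% of FPKM in the TMD8 control and 63.1% and 60.5% with shEGR1#8 and shEGR1#9, and these values were not rescaled for that. COA1 was also in a list of 7 carriers and further subunits (among them cytochrome c, CYCS, and CYC1), in which it was the 1 call, with a median of -0.08. Of 13 regulators tested, 1 fell, the coactivator PPARGC1B (-0.26, adjusted p = 0.0418), at 2.39 to 2.61 FPKM in the controls and 1.75 to 2.07 in the hairpin libraries. In TMD8 PPARGC1B was at 2.88, 4.84 and 4.25 and in SUDHL2 at 4.30, 3.64 and 5.03, so it was not lower with every hairpin in the other lines. The median of the regulators was -0.03, and NRF1, GABPA, YY1 and TFAM did not pass the test. When any 1 control library was left out, 0 of these 5 genes passed. None of 13 mitochondrially encoded subunit genes was found in the tables by name, so the nuclear and mitochondrial parts of a complex were not compared.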

How the data were processed

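RNA was measured by sequencing in 15 libraries of 3 cell lines. Libraries were prepared with an Illumina TruSeq RNA kit, per the labels' protocols. Bowtie2, HISAT, StringTie and the genome build hg19 are named in the submitters' processing notes, with versions not given in the sources used. The deposited values carry no stated unit, and were read as FPKM made by the authors because they are fractional, start at 0 and do not sum to a fixed total (431993 to 445028 in OCI-LY10). Whole reads could not be recovered, so read totals are unknown. Low values of 2 libraries stood in whole-number ratios, to within 0.01 on the log2 scale, for 23.0% to 35.8% of genes in OCI-LY10, 81.0% to 88.2% in SUDHL2 and 8.33% to 86.7% in TMD8. Lines with a repeated name (4, 10 and 10) were left out, as were 430 lines at the end of the SUDHL2 table, of which 429 equal the end of the TMD8 table.

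For OCI-LY10, log2(FPKM + 1) of genes with at least 1 FPKM in at least 3 of 9 libraries was fitted with limma 3.58.1 (R 4.3.3), with 1 mean per hairpin, trended empirical Bayes variance and Benjamini-Hochberg adjustment over all 10612 genes. The scripts were checked on simulated data. TMD8 and SUDHL2 have 1 library a group and were given as differences only, with genes counted past 1.5-fold. The p-values measure the spread between libraries, which may be technical. Between shEGR1#8 and shEGR1#9, deviations of libraries with the same replicate number correlated weakly (r = 0.17, 0.13 and 0.26, each over 0.1). Pairs with different numbers ran from -0.27 to 0.15, so the 2 ranges overlap. A fit with pairing by number changed no call between those 2 hairpins. The genes named were those called, the highest and lowest in level and difference in each complex, all SDH genes, isoform sets and genes past 1.5-fold with each hairpin in TMD8 or SUDHL2. NDUFB6, NDUFA10, NDUFB9, UQCRQ, UQCRC2, UQCRFS1, COX5A, COX5B, COX7A2L, ATP5H, ATP5A1 and ATP5B were added after their values or promoters were seen. Values of 1 gene of the set and 1 B-cell marker are not reported here. The genes and lists were chosen with earlier results of these data known. Python 3.11.15, numpy 2.4.6, pandas 2.3.3 and matplotlib 3.10.9 were used. Alternatives were other pseudocounts, filters, scalings, array weights, a replicate block and leaving out each library.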

Additional observations from a re-analysis of the deposited data

Results flagged for a closer look

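COX7A2L had small differences of opposite sign in OCI-LY10 and SUDHL2. In OCI-LY10 all 6 hairpin libraries were below the controls, by -0.12 on the log2 scale for both hairpins (adjusted p = 0.152, limma, past no threshold). In SUDHL2 the single libraries of both hairpins were above the control, by 0.17 and 0.06 relative to the median gene, and in TMD8 they were below it, by -0.74 and -0.76. The difference between the lines was not tested.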

How the results depend on the processing

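In OCI-LY10, the 1 gene called for both hairpins against control came to 4 with array weights (NDUFA5, NDUFB6 and UQCRC2 among them) and to between 0 and 4 when 1 library was left out: 0 without any 1 control or without shEGR1#9 replicate 1 or 2, 2 without shEGR1#8 replicate 1 and 4 without shEGR1#8 replicate 2. Under median-ratio scaling the count stayed at 1, and the gene was NDUFB6, which was lower. The count for shEGR1#8 against control was 0 under median-ratio scaling and under quantile normalization, 2 with array weights and 0 to 4 with 1 library left out (4 without shEGR1#8 replicate 2). For shEGR1#9 against control it was 0 under both scalings, 5 with array weights and 0 to 3 with 1 library left out (3 without shEGR1#8 replicate 3). Calls over all genes for both hairpins against control moved too, from 908 to between 281 and 1318 with 1 library left out and to 1914 with array weights. Those for each hairpin alone are not given here, so its counts under the alternatives are not set beside a share of all genes. The comparison of the hairpins kept 0 calls under every alternative run. The median difference of the 79 genes moved by less than its spread, between 0.0041 and 0.031 with 1 library left out and to -0.025 under median-ratio scaling. The 5 assembly and regulator calls came to 2 with no filter on low values and to between 0 and 6 with 1 library left out. For single genes, 451 of 511 values kept their side of the threshold, 57 lost the call and 3 gained one (NDUFA5 with array weights, UQCR11 and COX6C). Of the genes called in the main fit, 0 changed direction. Some uncalled genes near 0 did change sign. UQCRH was negative in 8 alternatives and positive in 8, and ATP5E was negative in 12 and positive in 4. Scaling without short RNA genes moved the counts past 1.5-fold in TMD8 from 29 to 16 and from 37 to 20, with medians of -0.047 and -0.019, and in SUDHL2 the count with shEGR1#8 from 10 to 4, with medians of -0.078 and -0.068. The cause of these changes was not tested.

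Between hairpin and control libraries, those with the same replicate number did not deviate together over all genes (correlations from -0.19 to 0.06). These correlations cannot exclude pairing by number, which the labels do not state. EGR1 itself was highest in replicate 3 of each group (12.3, 20.5 and 22.7 FPKM). With a replicate block, the count was 1 for both hairpins against control, 0 for shEGR1#8 and 0 for shEGR1#9 against control. FPKM without read totals gives no floor for genes listed at 0.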
